A study of Mus musculus with 6 samples.

Results

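NF-κB is a family of dimeric transcription factors, and 10 of its genes were followed through an RNA immunoprecipitation of Cnot3 from mouse heart: 5 feedback inhibitors (Nfkbia, Nfkbib, Nfkbie, Nfkbiz and Tnfaip3) and 5 subunits (Nfkb1, Nfkb2, Rel, Rela and Relb). They were taken by symbol from the 24421 symbols of the deposited table, and this family was chosen by its measured fold changes in Cnot3 RIP in an earlier analysis of these libraries, so their fold changes, and their place in lists of called genes, are given as a description and nothing is concluded from them. All 10 were present and all 10 passed the filter on low values, which kept 13010 genes. The libraries came from 4-week-old C57BL6/J mouse hearts, with 2 of Cnot3 RIP (RNA recovered with an antibody against Cnot3), 2 of control IgG RIP (a control antibody) and 2 of Input (heart RNA without immunoprecipitation). Cnot3 belongs to CCR4-NOT, the main cytoplasmic machine that shortens poly(A) tails. Genotype, sex and the number of animals behind a library are not given in the labels, and the labels do not tie replicates to separate animals, so the spread between replicates may be technical.

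In resting cells the NF-κB dimers are held in the cytoplasm by IκB proteins. A stimulus such as TNF or interleukin-1 activates the IκB kinase, the IκB is degraded, and the dimers enter the nucleus. Among the genes they switch on are Nfkbia and Tnfaip3, whose products shut the pathway down again. Many transcripts of this response are short-lived and carry AU-rich elements, copies of AUUUA in the 3′ untranslated region (3′ UTR) that bind proteins such as tristetraprolin, which recruits CCR4-NOT.

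Stretches of the 3′ UTRs are shown for Nfkbia and Rel, the members with the largest fold change of each class. A link of AU-rich motifs to the fold changes was not tested. The nonamer TTATTTATT was searched on the sense strand of the 3′ UTR of 1 annotated transcript per gene (GENCODE M21, GRCm38, the assembly also called mm10). It occurred once each in the 3′ UTRs of Nfkbia and Rel and was not found in those of Nfkbib, Nfkbie, Nfkbiz, Nfkb1, Nfkb2, Rela and Relb. It was present in 8.48% of the 12008 tested genes with a 3′ UTR. The 30-base windows around it run 5′ to 3′ on the sense strand, with the nonamer in capitals, and lie at chr12:55489607-55489636 (minus strand) for Nfkbia and chr11:23737833-23737862 (minus strand) for Rel.
Nfkbia: ggaccacgttTTATTTATTgtgcttttgat
Rel: ctcccagactTTATTTATTttttttagctt

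The shorter pentamer ATTTA was more widespread, present in 71.3% of the tested genes' 3′ UTRs. Its count was 2 in the 512 bases of Nfkbia, 12 in the 5418 bases of Rel, 4 in Nfkbiz, 4 in Nfkb1 and 1 in Nfkb2. No copy lay in the 3′ UTRs of Nfkbib, Nfkbie, Rela and Relb. Nfkb1, with 5.71 pentamers per kb, had a dense 3′ UTR, at the 95.8th percentile of all tested genes, against 3.91 per kb in Nfkbia and 2.21 per kb in Rel. Nfkbiz and Nfkb1 are shown as the members with several pentamers but no nonamer, with the pentamers in capitals, at chr16:55811851-55811880 (minus strand) and chr3:135584699-135584728 (minus strand) of GRCm38.
Nfkbiz: cctcttagATTTAtgtaATTTAcctaagtt
Nfkb1: tgttgaATTTAtaaatgctATTTActtttt

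The genes called higher in Cnot3 RIP against control IgG RIP had the nonamer in 19.4% of the 196 that have a 3′ UTR, and ATTTA in 91.3%. Their 3′ UTRs were also longer, with a median of 1997 bases, against 1243 bases over all tested genes, and the part of length in these shares was not tested. A match is a description of the letters and shows no bound factor.

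Nfkbia, which encodes IκBα, the inhibitor that is resynthesised after NF-κB activation, had the largest log2 fold change of all 13010 tested genes in Cnot3 RIP, both against control IgG RIP and against Input. Its level, in CPM scaled with TMM factors, was 206 and 537 in the Cnot3 RIP libraries, 10.7 and 13.1 in those of control IgG RIP, and 7.76 and 15.7 in those of Input. Both Cnot3 RIP libraries were far above all 4 others, and the control IgG RIP values lay within the range of Input. The mean was 372 ± 234 in the Cnot3 RIP libraries, 11.9 ± 1.75 in those of control IgG RIP and 11.7 ± 5.64 in those of Input (SD, n = 2 each). The log2 fold change was 4.78 ± 0.45 (SE) against control IgG RIP, a 27.5-fold higher level, and 4.88 ± 0.45 against Input. Behind these values stood 5784 and 17919 reads in the Cnot3 RIP libraries, 185 and 290 reads in those of control IgG RIP, and 84 and 326 reads in those of Input.

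The Cnot3 RIP replicates differed in Nfkbia by 1.38 on the log2 scale, replicate 2 being the higher, where the same difference had an SD of 0.59 over all tested genes. With replicate 1 or replicate 2 of any group left out, the log2 fold change of Nfkbia against control IgG RIP stayed between 4.09 and 5.47. The gene spans chr12:55489410-55492647 on the minus strand of GRCm38.

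Among the other inhibitors, Tnfaip3 was also higher in Cnot3 RIP. It encodes A20, a ubiquitin-editing enzyme that ends signalling from the TNF receptor. Its scaled CPM was 6.52 and 6.18 in the Cnot3 RIP libraries, 1.96 and 2.63 in those of control IgG RIP, and 2.12 and 1.45 in those of Input. The Cnot3 RIP replicates were close together and above all 4 other libraries, while control IgG RIP and Input overlapped. The log2 fold change was 1.39 ± 0.29 (SE) against control IgG RIP and 1.72 ± 0.29 against Input. Tnfaip3 lies on chromosome 10, at 19000910 to 19015657 on the minus strand.

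Nfkbiz encodes IκBζ, an inducible nuclear IκB that adjusts NF-κB activity at its target genes. It was measured at 3.95 and 5.13 scaled CPM in the Cnot3 RIP libraries, 2.60 and 3.53 in those of control IgG RIP, and 1.94 and 2.12 in those of Input. The 3 groups did not overlap and lay in that order. The log2 fold change was 0.53 ± 0.28 (SE) against control IgG RIP and 1.06 ± 0.28 against Input, and that of control IgG RIP against Input was 0.53 ± 0.28. The level in the control antibody libraries thus lay between those of Cnot3 RIP and Input.

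Nfkbib and Nfkbie encode IκBβ and IκBε, close relatives of IκBα that also retain NF-κB dimers in the cytoplasm. Nfkbib had 2.35 and 1.77 scaled CPM in the Cnot3 RIP libraries, 1.96 and 2.04 in those of control IgG RIP, and 2.31 and 4.49 in those of Input. Its log2 fold change was 0.03 ± 0.34 (SE) against control IgG RIP and -0.60 ± 0.34 against Input. The Cnot3 RIP values spanned those of control IgG RIP, and 1 Input library stood above the rest. Nfkbie was the least abundant member, with 27 and 12 reads in the Cnot3 RIP libraries, 10 and 21 in those of control IgG RIP, and 15 and 10 in those of Input. Its log2 fold change was -0.21 ± 0.50 against control IgG RIP and -0.35 ± 0.50 against Input, and the 3 groups overlapped, so at this depth only a large difference could have been seen. The exons of Nfkbib share 314 bases with Ccer2 on the opposite strand, and since the strand of the counting is not given, its reads cannot be told from those of Ccer2 there.

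Rel was the subunit that stood out. It encodes c-Rel, a subunit with a transactivation domain best known from lymphocytes. Its scaled CPM was 18.0 and 23.3 in the Cnot3 RIP libraries, 7.21 and 7.88 in those of control IgG RIP, and 7.48 and 4.15 in those of Input. Both Cnot3 RIP values were above all others, and the range of Input included the lower control IgG RIP value. The log2 fold change of Rel was 1.41 ± 0.30 (SE) against control IgG RIP and 1.83 ± 0.30 against Input, both slightly above those of Tnfaip3. Rel lies at chr11:23736847-23770970 on the minus strand.

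Nfkb1 encodes p105, the precursor of the DNA-binding subunit p50. It had 23.4 and 33.3 scaled CPM in the Cnot3 RIP libraries, 22.8 and 20.2 in those of control IgG RIP, and 15.1 and 17.6 in those of Input. The groups did not overlap, but the lower Cnot3 RIP value was close to the upper one of control IgG RIP. The log2 fold change was 0.38 ± 0.24 (SE) against control IgG RIP, 0.77 ± 0.24 against Input, and 0.39 ± 0.24 for control IgG RIP against Input. As for Nfkbiz, the control IgG RIP level lay between the others.

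Rela encodes p65, the transactivating subunit of the classical dimer. It had 9.97 and 8.66 scaled CPM in the Cnot3 RIP libraries, 10.8 and 11.2 in those of control IgG RIP, and 11.6 and 12.3 in those of Input. The Cnot3 RIP libraries were the lowest of the 6, with a log2 fold change of -0.24 ± 0.22 (SE) against control IgG RIP and -0.36 ± 0.22 against Input. Scaled by library size alone, the same values were 0.07 and 0.70, below the medians of all tested genes under that scaling, 0.30 and 1.02.

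Nfkb2 and Relb belong to the non-canonical branch, in which p100, the product of Nfkb2, is processed to p52 and pairs with RelB. Nfkb2 had 7.37 and 7.97 scaled CPM in the Cnot3 RIP libraries, 8.07 and 8.93 in those of control IgG RIP, and 8.13 and 7.10 in those of Input, a narrow range in all libraries. Relb had 2.64 and 1.44 in the Cnot3 RIP libraries, 1.79 and 2.54 in those of control IgG RIP, and 2.96 and 1.69 in those of Input, with all 3 groups overlapping. On the log2 scale their changes against control IgG RIP were -0.14 ± 0.23 (SE) for Nfkb2 and -0.11 ± 0.38 for Relb. Nfkb2 shares exon bases on the opposite strand with Psd (299 bases) and with AC114539.1 (531 bases), so its reads are uncertain in those stretches.

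**Figure D1:**
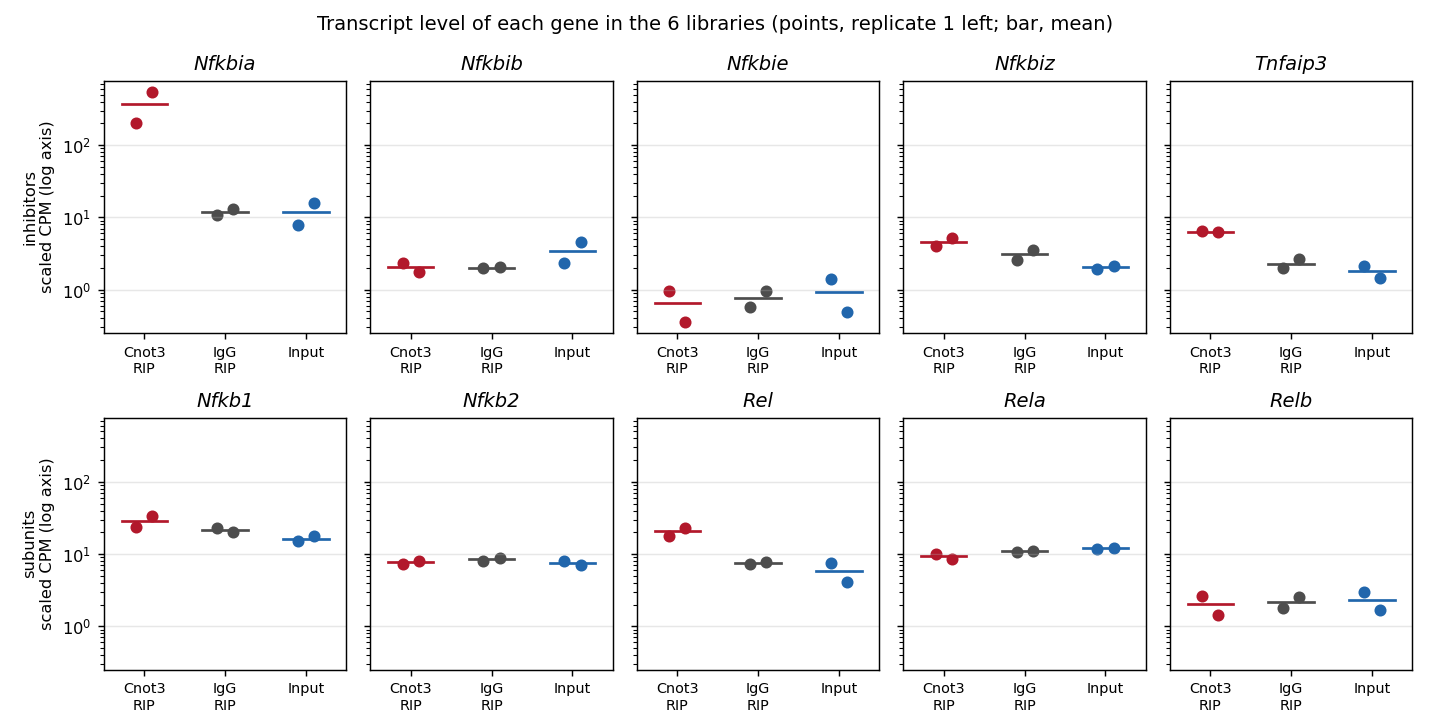
Level of each of the 10 genes in every library, in scaled CPM on a log axis that is the same in all panels, with replicate 1 to the left of replicate 2 and a bar at the group mean. Nfkbia at 206 and 537 in Cnot3 RIP is far above its other 4 libraries, Tnfaip3 and Rel are higher in Cnot3 RIP by a smaller step, and Nfkb2, Rela and Relb stay nearly level.

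Against control IgG RIP, limma called 236 of the 13010 tested genes at an adjusted p under 0.05, which is 1.81% of them (1.54% higher and 0.277% lower). Nfkbia and Tnfaip3 were among those called higher, and 0 of the 5 subunits were, while edgeR and DESeq2 on the recovered reads also listed Rel. Tnfaip3 and Rel lay close to the threshold, on opposite sides of it, with nearly the same fold change. The members were chosen for such values, so these counts describe where they stand and support nothing further. Against Input, 8.32% of all tested genes were called (5.86% higher and 2.47% lower), and Nfkbia, Tnfaip3, Nfkbiz and Rel were among the higher ones. For control IgG RIP against Input 4.07% of all tested genes were called (2.58% higher and 1.49% lower), and 0 of the 10 were, by limma, edgeR or DESeq2, with 0 also at an unadjusted p under 0.05. The comparisons share libraries, so their values stand side by side and are not independent of each other. Cnot3 RIP was above control IgG RIP with no overlap for 5 members (Nfkbia, Nfkbiz, Tnfaip3, Nfkb1 and Rel), where 24% of all tested genes were, and below it with no overlap for 2 (Nfkb2 and Rela), where 21.8% of all tested genes were. It was above Input with no overlap for the same 5 members, against 30.6% of all tested genes, and below it for Rela, against 26.9%. Control IgG RIP did not overlap Input for 2 members above it (Nfkbiz and Nfkb1), against 29.7% of all tested genes, and 2 below it (Nfkbib and Rela), against 29.3%.

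These calls moved with the libraries. Without control IgG RIP replicate 1, limma called 0 of the 13010 genes against control IgG RIP, although an unadjusted p under 0.05 was reached by 734 higher and 376 lower genes, Nfkbia included. The edgeR quasi-likelihood test on the recovered reads of all 6 libraries called 242 genes higher and 54 lower. The 15 alternative analyses counted next include settings that were not planned. These are TMM factors over all genes and a replicate block with the control IgG RIP numbers exchanged, and both called Tnfaip3 and Rel against control IgG RIP. Tnfaip3 was called in 7 of 15 alternative analyses against control IgG RIP and in none that left out a library, and Rel in 8 of 15, with positive fold changes in all of them. Against Input the call held in 15 of 15 for Nfkbia, 13 of 15 for Rel, 12 of 15 for Tnfaip3 and 6 of 15 for Nfkbiz. Those of Rel and Tnfaip3 were lost without Cnot3 RIP replicate 2 and without Input replicate 2, and that of Tnfaip3 also without Input replicate 1.

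**Figure D2:**
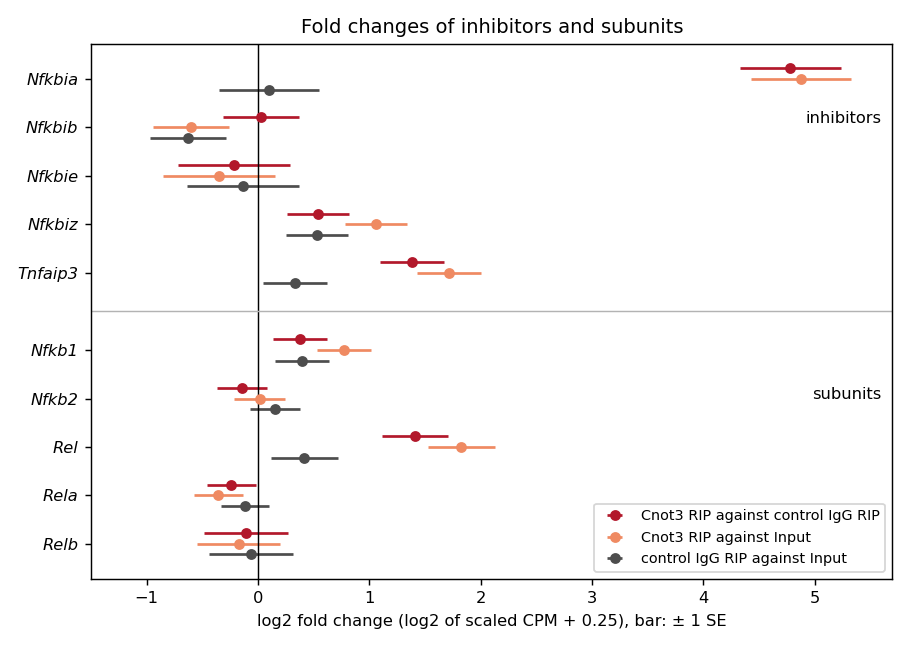
Log2 fold changes of the 5 inhibitors (top) and the 5 subunits (bottom) for Cnot3 RIP against control IgG RIP, Cnot3 RIP against Input and control IgG RIP against Input, with bars of 1 SE from the fit over all 6 libraries. Nfkbia lies near 4.78 and 4.88 in the Cnot3 RIP comparisons, Tnfaip3 and Rel lie side by side between 1.39 and 1.83, and the values for control IgG RIP against Input run from -0.63 for Nfkbib to 0.53 for Nfkbiz.

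Set against each other as classes, the inhibitors had a mean log2 fold change of 1.30 and the subunits of 0.26 in Cnot3 RIP against control IgG RIP, a difference of 1.04. Against Input the means were 1.34 for the inhibitors and 0.42 for the subunits, a difference of 0.92. For control IgG RIP against Input the difference was -0.12. Within each library, the mean log2 level of the inhibitors minus that of the subunits was -0.48 and -0.42 in the Cnot3 RIP libraries, -1.60 and -1.38 in those of control IgG RIP, and -1.55 and -1.19 in those of Input. On this mean of log2 levels, not corrected for length, the Cnot3 RIP libraries were the least negative.

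The class difference depended on which members were in it. Without Nfkbia, the other 4 inhibitors had a mean log2 fold change of 0.43 against control IgG RIP, a difference from the subunits of 0.17, and against Input that difference was 0.04. The per-library values of the inhibitors without Nfkbia minus the subunits were -1.69 and -1.96 in the Cnot3 RIP libraries, -2.12 and -1.89 in those of control IgG RIP, and -1.93 and -1.80 in those of Input, where Cnot3 RIP overlapped the other groups. With both Nfkbia and Rel left out, the difference was 0.46 against control IgG RIP and 0.39 against Input, and the per-library values were -1.47 and -1.65 in the Cnot3 RIP libraries, above -2.14 and -1.91 in those of control IgG RIP and -1.95 and -1.96 in those of Input. Of the 4 inhibitors left there, Tnfaip3 had 1.39 against control IgG RIP, and Nfkbiz, Nfkbib and Nfkbie had 0.53, 0.03 and -0.21. The median log2 fold change was 0.53 for all 5 inhibitors and -0.11 for all 5 subunits against control IgG RIP. The median of all tested genes was -0.00. Each class therefore held members of both kinds, Nfkbia and Tnfaip3 with Nfkbib and Nfkbie among the inhibitors, and Rel with Rela and Relb among the subunits.

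Ratios of reads within a library need no scaling between libraries. Those below set Nfkbia, the member with the largest fold change, against single subunits, so they describe Nfkbia and not the classes. Per read of Rela there were 20.7 and 62.0 reads of Nfkbia in the Cnot3 RIP libraries, 0.984 and 1.17 in those of control IgG RIP, and 0.667 and 1.28 in those of Input. The inhibitor and the subunit it binds were thus at similar read numbers in the control IgG RIP and Input libraries. Per read of Nfkb1, those of Nfkbia numbered 8.80 and 16.1 in the Cnot3 RIP libraries, 0.467 and 0.652 in those of control IgG RIP, and 0.515 and 0.896 in those of Input.

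Rel also changed its place relative to Rela. The ratio of Rel to Rela reads was 1.804 and 2.69 in the Cnot3 RIP libraries, 0.665 and 0.704 in those of control IgG RIP, and 0.643 and 0.337 in those of Input, so Rel had more reads than Rela only in the Cnot3 RIP libraries. For Tnfaip3 the ratio to Rela was 0.654 and 0.713 in the Cnot3 RIP libraries, 0.181 and 0.235 in those of control IgG RIP, and 0.183 and 0.118 in those of Input. The ratio of Nfkbib to Rela was 0.236 and 0.204 in the Cnot3 RIP libraries, above 0.181 and 0.182 in those of control IgG RIP and within the 0.198 and 0.365 of those of Input. The Relb ratio to Rela overlapped between all 3 groups, and so did that of the inhibitor Nfkbie.

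**Figure D3:**
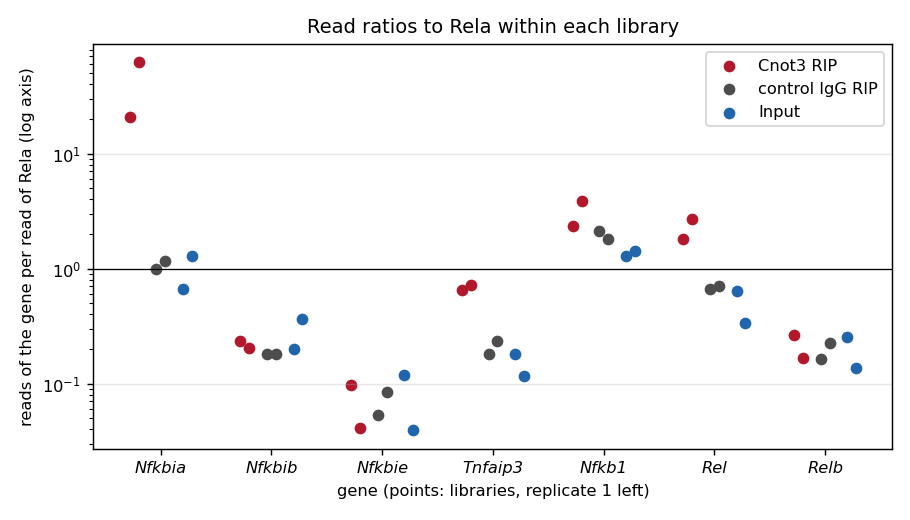
Reads of 7 of the genes per read of Rela in the same library, on a log axis, with replicate 1 to the left. Nfkbia reaches 20.7 and 62.0 in Cnot3 RIP and lies between 0.667 and 1.28 elsewhere, and Rel is above 1 in the Cnot3 RIP libraries and below 1 in the other 4.

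Levels of different genes were compared per length, as scaled CPM per kb of annotated exon, which is approximate because the annotation behind the counts is not given. In Input the order of the means was Nfkbia (7.45), Rela (4.41), Nfkb1 (3.96), Nfkb2 (1.803), Nfkbib (1.60), Relb (1.05), Rel (0.779), Nfkbiz (0.491), Tnfaip3 (0.389) and Nfkbie (0.384). The SD of Nfkbia in Input, 3.58, exceeded its distance from Rela, and from Nfkb2 down to Rel the replicate values of each gene overlapped those of its neighbour. Rela and Nfkb1 were the leading subunits. RNA from whole heart cannot tell more cells of a type from more RNA per cell.

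In Cnot3 RIP the order of the same per-length levels was Nfkbia (236), Nfkb1 (6.88), Rela (3.43), Rel (2.76), Nfkb2 (1.82), Tnfaip3 (1.38), Nfkbiz (1.10), Nfkbib (0.968), Relb (0.921) and Nfkbie (0.271). Control IgG RIP had Nfkbia at 7.54, Nfkb1 at 5.21, Rela at 4.06, Nfkb2 at 2.01 and Rel at 1.01, followed by Relb, Nfkbib, Nfkbiz, Tnfaip3 and Nfkbie between 0.978 and 0.314. Rel stood above Nfkb2 in Cnot3 RIP and below it in both other groups, with no overlap of the 2 genes in any group. Nfkbiz, Nfkbib and Relb overlapped in Cnot3 RIP, so their order there is not resolved.

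The promoters of Nfkbia, Tnfaip3 and Rel are shown because these 3 genes were higher together in Cnot3 RIP. They run from 250 bases before to 50 bases after the start site in RefSeq (GRCm38.p6), 5′ to 3′ on the gene's strand, with matches to the κB consensus, the DNA motif bound by NF-κB, in capitals. The consensus of 10 bases was searched on both strands, where matches may overlap. RefSeq promoters were matched for 7 of the 10 members, all but Nfkbiz, Nfkb1 and Relb. The regions are chr12:55492598-55492897 for Nfkbia, chr10:19015361-19015660 for the first Tnfaip3 promoter and chr11:23770920-23771219 for Rel, all on the minus strand.
Nfkbia: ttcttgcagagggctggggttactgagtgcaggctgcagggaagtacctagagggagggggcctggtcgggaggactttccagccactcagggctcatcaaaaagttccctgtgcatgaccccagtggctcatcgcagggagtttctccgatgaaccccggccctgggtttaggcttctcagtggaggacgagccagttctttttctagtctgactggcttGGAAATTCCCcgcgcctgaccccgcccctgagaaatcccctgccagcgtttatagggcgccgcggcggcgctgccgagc
Tnfaip3: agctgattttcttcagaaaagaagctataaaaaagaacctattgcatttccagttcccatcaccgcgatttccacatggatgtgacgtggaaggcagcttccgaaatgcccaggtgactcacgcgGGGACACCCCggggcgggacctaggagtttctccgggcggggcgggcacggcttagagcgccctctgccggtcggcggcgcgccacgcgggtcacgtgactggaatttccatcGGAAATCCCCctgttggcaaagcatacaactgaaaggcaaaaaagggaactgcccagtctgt
Rel: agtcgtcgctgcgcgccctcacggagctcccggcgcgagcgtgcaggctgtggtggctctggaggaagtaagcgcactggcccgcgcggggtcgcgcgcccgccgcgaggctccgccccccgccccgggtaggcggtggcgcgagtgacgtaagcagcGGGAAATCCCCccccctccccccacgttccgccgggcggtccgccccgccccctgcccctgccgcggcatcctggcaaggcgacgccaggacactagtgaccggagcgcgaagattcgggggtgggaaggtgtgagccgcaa

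Nfkbia had 1 match, read on the opposite strand as GGGAATTTCC, from -29 to -20 relative to the start site. The first Tnfaip3 promoter had 2 matches, its other listed promoter had 0, and Rel had 3 overlapping ones within 11 bases. Nfkbie had 1, the 3 listed promoters of Nfkb2 had 4, 2 and 1, and those of Nfkbib and Rela had 0. Promoters 2 and 3 of Nfkb2 overlap and share the match GGGACTTTCC, and 3 of the 4 matches in promoter 1 overlap each other. A match occurred in 4.51% of all 32851 listed promoters and in at least 1 promoter of 6.23% of the 9834 tested genes with one. The log2 fold changes of Nfkbie and Nfkb2 in Cnot3 RIP against control IgG RIP were -0.21 ± 0.50 and -0.14 ± 0.23 (SE). A link of κB matches to the fold changes was not tested.

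Tested genes with placeholder symbols, such as those ending in Rik, were left out of the search for genes most like Nfkbia. Among the rest, those with the most similar pattern over the 6 libraries were found by the smallest Euclidean distance between mean-centred log2 levels. They were Edn1 (distance 1.04), which encodes the vasoconstrictor peptide endothelin-1, D5Ertd579e (1.11), Id1 (1.29), an inhibitor of basic helix-loop-helix factors, Dusp1 (1.37), a phosphatase of MAP kinases, and F3 (1.48), the tissue factor that starts blood clotting. Their levels in Cnot3 RIP were also higher in replicate 2, as in Edn1 with 19.1 and 54.3 scaled CPM in the Cnot3 RIP libraries, 0.865 and 2.40 in those of control IgG RIP, and 1.20 and 1.98 in those of Input. Dusp1 had 266 and 621 scaled CPM in the Cnot3 RIP libraries, 17.6 and 34.5 in those of control IgG RIP, and 27.6 and 25.0 in those of Input. The likeness is a description over 6 libraries that share their depth and scaling.

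Other genes of the pathway were described by role, in lists chosen with earlier results of these data known. Among 19 other inhibitors and modulators, against control IgG RIP limma called 2 higher and 0 lower in Cnot3 RIP, and the median log2 fold change was 0.11. Over all tested genes 1.54% were called higher and 0.277% lower. The 2 called genes encode atypical nuclear IκB proteins, relatives of IκBζ. Bcl3, which binds p50 and p52 homodimers, had 7.30 and 8.30 scaled CPM in the Cnot3 RIP libraries, 0.750 and 1.27 in those of control IgG RIP, and 1.48 and 1.26 in those of Input, which against control IgG RIP is 2.71 ± 0.30 on the log2 scale (SE, limma adjusted p = 0.0109). Nfkbid, which encodes IκBNS, had 47 and 82 reads in the Cnot3 RIP libraries, 1 and 5 in those of control IgG RIP, and 2 and 2 in those of Input. Its summed reads, scaled by the TMM-adjusted library totals, were 13.8 times those of control IgG RIP in the Cnot3 RIP libraries (95% exact interval 6.17 to 38.3, counting error only), and its limma adjusted p was 0.0266. Both calls were lost without control IgG RIP replicate 1, and that of Nfkbid also without Cnot3 RIP replicate 2. Over the 15 alternatives the log2 fold change ran from 2.14 to 3.03 for Bcl3 and from 1.42 to 3.77 for Nfkbid.

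Limma called no other gene of that list against control IgG RIP. Nkrf, a nuclear repressor of NF-κB, had a log2 fold change of 0.55 ± 0.27 (SE) and Itch, a ubiquitin ligase that works with A20, of 0.49 ± 0.26 (limma adjusted p = 0.336 and 0.395). Zc3h12a, an endonuclease that degrades inflammatory mRNAs, had a larger value with a wider error, 0.78 ± 0.43. Tnip1, which binds A20, stood at -0.14 ± 0.24, and Cyld, the deubiquitinase that also restrains the pathway, at 0.29 ± 0.21. Against Input 2 were called higher, again Bcl3 and Nfkbid, and 1 lower, Commd1, with a log2 fold change of -1.07. Of all tested genes 5.86% were called higher and 2.47% lower in that comparison. With library size as the sole scaling, the value of Commd1 was -0.03, still below the median of all tested genes under that scaling.

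Among 31 listed NF-κB target genes, 27 were tested, and the Cnot3 RIP against control IgG RIP comparison called 7 higher and 0 lower, against 1.54% higher and 0.277% lower of all tested genes. Their median log2 fold change was 1.10, against -0.00 over all tested genes, and Ccl5, Il6, Traf1 and Mmp9 were too low to be tested. The 7 were Tnf, the founding cytokine of its family, F3, Ptgs2 (cyclooxygenase-2), Ier3, Myc, the chemokine gene Ccl2 and Cflar, which encodes the caspase-8 inhibitor c-FLIP. Tnf had 157 and 128 reads in the Cnot3 RIP libraries, 1 and 3 in those of control IgG RIP, and 5 and 0 in those of Input. Its summed reads, with the same scaling, were 45.7 times those of control IgG RIP in the Cnot3 RIP libraries (95% exact interval 17.7 to 169, counting error only), and its limma adjusted p was 0.0162.

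Ptgs2 had 4.13 and 9.98 scaled CPM in the Cnot3 RIP libraries, 0.519 and 0.453 in those of control IgG RIP, and 0.739 and 0.531 in those of Input, which is 3.19 ± 0.41 on the log2 scale (SE, limma adjusted p = 0.0152) against control IgG RIP. Myc had 6.62 and 20.4 scaled CPM in the Cnot3 RIP libraries, 1.15 and 1.54 in those of control IgG RIP, and 1.11 and 1.35 in those of Input, which is 2.91 ± 0.46 on the log2 scale (limma adjusted p = 0.0259). In both genes replicate 2 of Cnot3 RIP was the higher, as for Nfkbia. Cflar had the smallest change of the 7, 1.11 ± 0.23 (limma adjusted p = 0.0491). Targets such as Icam1 (0.09 ± 0.37), Sod2 (-0.01 ± 0.22) and Fth1 (-0.23 ± 0.22) were not called against control IgG RIP. Against Input, 8 target genes were called higher and 1 lower, beside 5.86% higher and 2.47% lower of all tested genes: the same 7 and Irf1 were higher, and Fth1 was lower, at -1.44 on the log2 scale (limma adjusted p = 0.0115). The number of called target genes fell to 0 without control IgG RIP replicate 1, to 2 without control IgG RIP replicate 2, to 1 without Cnot3 RIP replicate 2, to 4 without Input replicate 2 and to 2 with no filter on low values.

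Upstream of the dimers, 0 of 23 receptors and adaptors and 0 of 13 kinases and ubiquitin ligases were called in either direction against control IgG RIP, with median log2 fold changes of 0.22 and -0.06. Over all tested genes 1.81% were called in this comparison, so a count of 0 in lists of this size does not set them apart. An unadjusted p under 0.05 was reached by 6 receptors and adaptors and 1 of the kinases and ligases, all higher. On the recovered reads edgeR called 0 in both lists and DESeq2 called 1 receptor or adaptor. The smallest p among receptors and adaptors belonged to Tlr3, a sensor of double-stranded RNA, at 1.16 ± 0.29 on the log2 scale (SE, limma adjusted p = 0.0857), Tnfrsf1b (0.92 ± 0.25), Il1r1 (0.93 ± 0.27) and Traf6 (0.82 ± 0.24). Among the kinases and ligases Tab3, an adaptor of the kinase encoded by Map3k7, had 0.58 ± 0.23, and Map3k7 itself -0.36 ± 0.21. The IκB kinase genes Chuk, Ikbkb and Ikbkg stood at 0.48 ± 0.34, -0.17 ± 0.24 and -0.02 ± 0.22. Against Input, 2 of the 23 receptors and adaptors (Tnfrsf1b and Il1r1) and 1 of the 13 kinases and ligases (Tab3) were called higher, where 5.86% of all tested genes were. Of 15 alternatives, 12 kept the call of Tnfrsf1b, 9 that of Il1r1 and 8 that of Tab3.

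**Figure D4:**
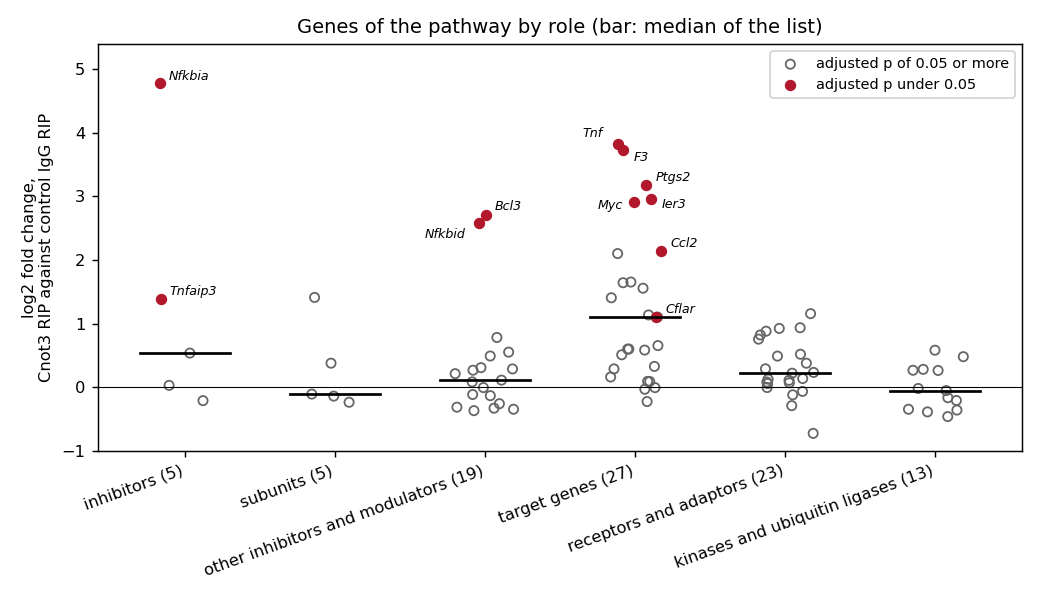
Log2 fold change of Cnot3 RIP against control IgG RIP for each tested gene of the pathway by role, with the number tested in brackets, a bar at the list's median and filled points for genes with a limma adjusted p under 0.05. The called genes are 2 inhibitors, 2 other inhibitors and modulators and 7 target genes, and none of the subunits, receptors, adaptors, kinases or ligases. Of all tested genes 1.81% were called.

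Several of these transcripts are known from leukocytes, so the marker levels are given beside them. The summed scaled CPM of 10 leukocyte markers was 72.4 and 50.3 in the Cnot3 RIP libraries, 66.2 and 76.0 in those of control IgG RIP, and 64.2 and 78.3 in those of Input, and 0 of the 7 tested were called in either direction against control IgG RIP. In that comparison, where 1.81% of all tested genes were called, the unadjusted p of these 7 was above 0.05 in each case by limma and by edgeR. Set against Input, 0 of the 7 were called higher and 1 lower, where 5.86% and 2.47% of all tested genes were. The leukocyte marker sum of Cnot3 RIP overlapped that of the other groups and its part in the levels above was not tested. Endothelial markers summed to 404 and 227 in the Cnot3 RIP libraries, 247 and 390 in those of control IgG RIP, and 301 and 249 in those of Input. Fibroblast and smooth muscle sums had the same order within each group, higher in Cnot3 RIP replicate 1, control IgG RIP replicate 2 and Input replicate 1. The log2 fold changes of the 6 fibroblast markers in Cnot3 RIP against control IgG RIP ran from -0.14 to 2.25, with 0 called. Cardiomyocyte markers were abundant in all libraries, between 16113 and 33163 scaled CPM in sum, which fits the heart label. Of these 6 markers 1 was called lower against Input and 0 against control IgG RIP. The 4 haemoglobin genes Hba-a1, Hba-a2, Hbb-bs and Hbb-bt were listed at 0 in all 6 libraries. The remaining erythroid marker, Alas2, had 13.7 and 6.09 scaled CPM in the Cnot3 RIP libraries. It had 11.9 and 13.6 in those of control IgG RIP, and 12.8 and 6.23 in those of Input.

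Library totals were 19176056 and 25567544 reads in the Cnot3 RIP libraries, 18032715 and 17283203 in those of control IgG RIP, and 15713318 and 33479580 in those of Input. Rn45s, the ribosomal RNA precursor, took 51.1% to 53.1% of the Cnot3 RIP reads, 59.4% to 60.2% of those of control IgG RIP and 78.3% to 79.2% of those of Input. With library size as the sole scaling, the median log2 fold change of all tested genes was 0.30 for Cnot3 RIP against control IgG RIP and 1.02 for Cnot3 RIP against Input, and the values of Nfkb2, Rela and Relb against control IgG RIP were then 0.17, 0.07 and 0.17, positive but below that median. Over all tested genes the closest pair of libraries was Cnot3 RIP replicate 1 with control IgG RIP replicate 2 (r = 0.975), against r = 0.965 between the Cnot3 RIP replicates.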

How the data were processed

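RNA of 6 libraries was sequenced, and the authors deposited a table of CPM (each gene's reads relative to its library's total, which includes Rn45s) for 24421 gene symbols. Per the submitters' processing notes, CASAVA 1.8, FastQC, Bowtie2 2.2.5, TopHat2 2.1.0, edgeR and the mm10 genome were used. No source used here names the read counter, annotation, library kit or strand. Whole reads were recovered from the CPM steps, with 100% of values within 0.01 read of a whole number. The edgeR quasi-likelihood test on those reads, run as an alternative, gave 242 genes higher and 54 lower with Cnot3 RIP set against control IgG RIP.

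Genes were kept with filterByExpr at a minimum count of 10 (13010 genes). Values of log2(TMM-scaled CPM + 0.25) entered limma 3.58.1 with a trended prior (R 4.3.3, edgeR 4.0.16 for TMM), as 3 group means over all 6 libraries with 3 residual and 6.24 prior degrees of freedom. A call is a Benjamini-Hochberg adjusted p under 0.05 over all tested genes. Fold changes on this scale understate those of low genes. With 2 libraries a group, an exact permutation test of 1 gene cannot go below p = 0.333. The limit that a count of 0 allows, 3 reads, is 0.0899 to 0.277 scaled CPM, and such limits and intervals cover counting error only.

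The members and lists were chosen with earlier results of these data known. All 10 members are named, with up to 4 genes of smallest p and any called gene of each list. Also named are the 5 genes nearest to Nfkbia among those without placeholder symbols. Genes given beyond that rule (Zc3h12a, Tnip1, Cyld, Icam1, Sod2, Fth1, Commd1 and the IκB kinase genes) were picked for their role after their values were seen. The targets Ccl7, Irf1, Cxcl2, Cxcl1, Gadd45b and Il1b were added for their values, as uncalled genes above Cflar. Alternatives were other scalings, pseudocount 1, no filter, edgeR, DESeq2 1.42.0, a replicate block and leaving out each library. TMM factors over all genes and a replicate block with the control IgG RIP numbers exchanged were not planned and are counted among them. The replicate numbers were not used as pairs, since the labels do not say what they mark and the libraries of the same number did not deviate together in every pair of groups: the correlation of same-numbered deviations was -0.32 for Cnot3 RIP with control IgG RIP, 0.34 for Cnot3 RIP with Input and -0.33 for control IgG RIP with Input. The 3′ UTR of Tnfaip3 is not reported here.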

Additional observations from a re-analysis of the deposited data

How the results depend on the processing

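Over 15 alternatives, no called log2 fold change of a member turned its sign. The number of genes called in Cnot3 RIP against control IgG RIP, 236 in the fit reported, was 625 with library size scaling only, 35 with no filter on low values, 720 with DESeq2, 385 with the replicate number as a block, and 0 to 1275 with a library left out (0 without control IgG RIP replicate 1, 29 without Cnot3 RIP replicate 2, 100 and 121 without an Input replicate, 114 without control IgG RIP replicate 2, 1275 without Cnot3 RIP replicate 1). For the count of 0, 734 genes higher and 376 lower had an unadjusted p under 0.05 in limma, and edgeR on all libraries called 296. Against Input, 1083 became 7759 with library size scaling, 548 with no filter, 809 with the replicate block and 10 to 1958 with a library left out. For control IgG RIP against Input, 530 became 4393 with library size scaling, 339 with edgeR, 325 with the replicate block and 20 to 864 with a library left out. The share of higher calls moved from 84.7% to 94.7% in Cnot3 RIP against control IgG RIP, and to 99.9% and 99.8% in the comparisons with Input, under library size scaling. The causes were not tested. A block with the control IgG RIP numbers exchanged, added after seeing the data, called 1065, 2498 and 1870 genes in the same 3 comparisons.

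The difference of inhibitors and subunits ranged with a library left out from 0.94 to 1.15 against control IgG RIP, from 0.75 to 1.11 against Input, and from -0.30 to 0.058 for control IgG RIP against Input. A block changes no mean, so these differences were the same under it. Nfkbie, with 10 to 27 reads a library, is the member that depth limits most. An estimate with a group of 1 library assumes that it varies like the other groups.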
